A study of Mus musculus with 8 samples.

Results

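The extracellular matrix genes described here are 38 genes for laminin chains, nidogens, heparan sulfate proteoglycans, the hyaluronan-rich matrix of the endocardial cushions, elastic fibre components, matricellular proteins and small leucine-rich proteoglycans, with collagens left out. They were chosen by symbol, matched to gene IDs in the deposited count table, and all 38 were found among its 27179 genes and passed the filter on low counts with 15086 genes in all. Total RNA came from whole mouse hearts at E10.5, a stage in mid-gestation, 1 library per heart. By the labels, the 3 Kat6a KO hearts had lost both copies of Kat6a (Kat6a-/-), and the 5 Kat6a WT hearts carried the intact gene (Kat6a+/+). The product of Kat6a (Moz) acetylates histones. The labels do not limit the loss to a cell type and name no strain, litter, dissection day or sex, so p-values cover only how these hearts differ, which may include such factors.

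Basement membranes are sheets in which laminin trimers, each built of an alpha, a beta and a gamma chain, are tied to collagen IV by nidogens and perlecan. Glypicans and syndecans carry heparan sulfate chains at the cell surface and present growth factors and morphogens to their receptors. In the embryonic heart, hyaluronan and versican swell the matrix between myocardium and endocardium, and this cardiac jelly becomes the cushions from which valves and septa form.

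The libraries held 19911803 to 30033097 counts in Kat6a KO hearts and 20817852 to 34539787 in Kat6a WT hearts. The 38 genes took 1.04% to 1.20% of the counts of a Kat6a KO heart and 1.06% to 1.21% of those of a Kat6a WT heart. Kat6a itself was counted at 141, 133 and 137 CPM (counts scaled to a common library size, after trimmed mean of M values scaling) in Kat6a KO hearts, against 138, 144, 143, 141 and 156 CPM in Kat6a WT hearts, a log2 fold change of -0.08 ± 0.05 (SE; edgeR, adjusted p = 0.529). The labels do not say which exons the mutant allele lacks, so this total is no check of the genotypes, and groups are named as labelled. Xist RNA was over 10 CPM in 2 hearts, Kat6a WT replicates 4 and 5, and in no Kat6a KO heart. The sample descriptions number the Kat6a KO hearts ahead of the Kat6a WT hearts, and the labels do not say what the numbers stand for. If they follow the order of handling, an effect of that order and one of genotype cannot be told apart.

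Most of these matrix genes did not pass the test between genotypes. Gpc4, for a glypican, and Lamb2, for a laminin beta chain, were higher in Kat6a KO hearts, while Lama1, Gpc3, Sdc1 and Fbln1 were lower, and the other 32 did not reach an adjusted p of 0.05 in edgeR's quasi-likelihood test. DESeq2 called the same 6 genes, and limma voom called Lama5 and not Gpc3. The 6 calls are 15.8% of the 38 genes, against 2.67% of all genes tested and 2.92% of tested genes averaging at least 10 CPM over the 8 hearts. The 38 genes were chosen with earlier results of these data known, so the difference between these shares is no evidence of enrichment. At an unadjusted p under 0.05 there were 9 of the 38 genes, against 14.2% of all genes tested, a share at which subgroups of 3 to 5 genes with 0 are not set apart. By direction, 1.44% of all genes tested were higher and 1.23% lower. Every Kat6a KO heart lay above every Kat6a WT heart for 1 gene, Gpc4, where 4.77% of all genes tested do so, and below for 5 genes, Lama1, Gpc3, Sdc1, Fbln1 and Fbln5, where 4.81% do so (9.59% in either direction). The median log2 fold change was -0.02 over the 38 genes and -0.00015 over all genes tested. In whole hearts, fewer cells of a type and less RNA per cell cannot be told apart.

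**Figure D1:**
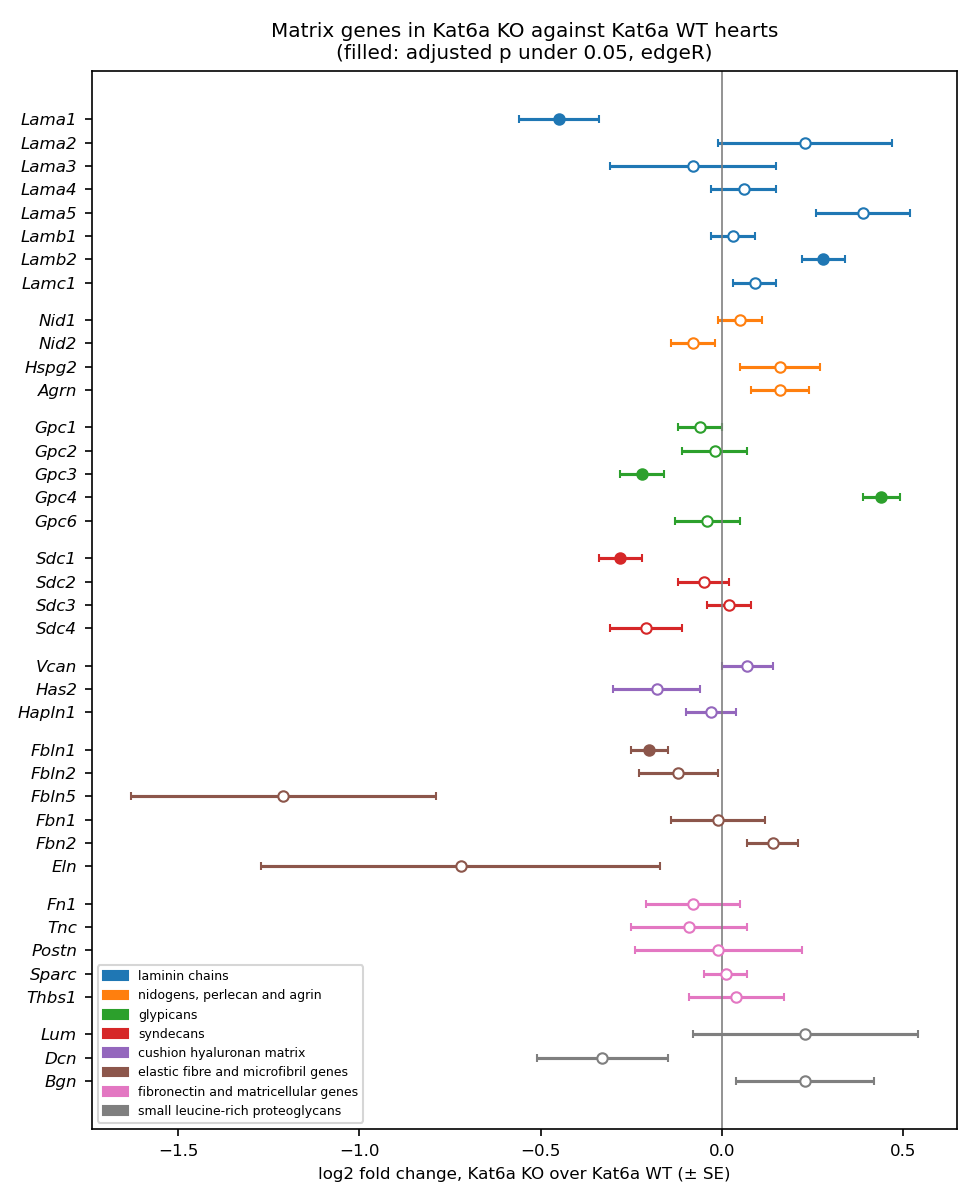
Log2 fold change of each of the 38 genes, Kat6a KO (3 hearts) over Kat6a WT (5 hearts), with points for edgeR estimates, lines for ± SE and filled points for an adjusted p under 0.05. The 6 filled points are Gpc4 and Lamb2 on the right of 0 and Lama1, Gpc3, Sdc1 and Fbln1 on the left.

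Among the 8 laminin chains, the alpha chain Lama1 fell and the beta chain Lamb2 rose, and 6 did not pass. Lama1 (chr17:67697127-67822645) encodes the alpha chain of the first laminin of the mouse embryo. It was measured at 15.7, 17.7 and 17.5 CPM in Kat6a KO hearts, against 24.5, 19.3, 22.7, 21.0 and 28.1 CPM in Kat6a WT hearts. The groups did not overlap, and replicate 5 was the highest of the Kat6a WT hearts. The means were 17.0 ± 1.13 CPM in Kat6a KO hearts (SD, n = 3) and 23.1 ± 3.38 CPM in Kat6a WT hearts (SD, n = 5), and Lama1 fell by 0.45 ± 0.11 on the log2 scale (SE; edgeR, adjusted p = 0.0235). Leaving out any Kat6a KO heart, or Kat6a WT replicate 3 or 5, ended the call (highest adjusted p = 0.179), as did leaving out the hearts with Xist RNA (0.0709), Xist RNA as a covariate (0.0902) and a block by replicate number (0.147). The hearts with Xist RNA have no Kat6a KO heart of the same number, so under the block they add nothing to the contrast. The block and the fit without these hearts are therefore not separate checks.

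Lamb2 (chr9:108479847-108490530) encodes the beta chain found in synaptic, kidney and vascular basement membranes. Its values were 177, 177 and 141 CPM in Kat6a KO hearts, against 129, 134, 137, 135 and 143 CPM in Kat6a WT hearts. Replicates 1 and 2 of Kat6a KO stood above all Kat6a WT hearts, and replicate 3 lay within their range. Lamb2 averaged 165 ± 20.9 CPM in Kat6a KO hearts and 136 ± 5.00 CPM in Kat6a WT hearts, and rose by 0.28 ± 0.06 on the log2 scale (SE; edgeR, adjusted p = 0.0261). The call ended when replicate 1 or 2 of Kat6a KO, or 1, 3 or 4 of Kat6a WT, was left out (highest adjusted p = 0.187), when the hearts with Xist RNA were left out (0.0685) and under the replicate block (0.112).

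Lama5, the alpha chain of most mature epithelial and vascular basement membranes, had the highest log2 fold change of the laminin chains but did not pass. Its levels were 211, 232 and 173 CPM in Kat6a KO hearts, against 137, 145, 157, 154 and 190.1 CPM in Kat6a WT hearts. The overlap came from Kat6a KO replicate 3 and Kat6a WT replicate 5. The log2 fold change was 0.39 ± 0.13 (SE; edgeR, adjusted p = 0.246), and an adjusted p under the threshold was reached by limma voom with quality weights (0.0441) and without Kat6a WT replicate 5 (0.0359). Lama2, the alpha chain of muscle basement membrane, had 27.1 to 29.9 CPM in Kat6a KO hearts and 15.3 to 34.5 CPM in Kat6a WT hearts, with no call (log2 fold change 0.23 ± 0.24, SE; edgeR, adjusted p = 0.757).

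Per length, the laminin pool of both genotypes was led by Lamc1, the common gamma chain, Lamb1, the common beta chain, and Lama4, the alpha chain of endothelial basement membrane. Lamc1 was measured at 960.0, 933 and 787 CPM in Kat6a KO hearts, against 794, 879, 856, 817 and 850.0 CPM in Kat6a WT hearts, with replicate 3 of Kat6a KO below all 5 Kat6a WT hearts and the other two above them. In CPM per kilobase, Lamc1 averaged 117 ± 12.2 in Kat6a KO hearts and 110.1 ± 4.43 in Kat6a WT hearts, Lamb1 91.4 ± 9.98 in Kat6a KO and 89.6 ± 5.07 in Kat6a WT hearts, and Lama4 69.1 ± 9.16 in Kat6a KO and 66.4 ± 5.29 in Kat6a WT hearts. Lamb2 followed with 29.3 ± 3.72 in Kat6a KO hearts and 24.1 ± 0.888 in Kat6a WT hearts, and Lama5 with 18.0 ± 2.65 in Kat6a KO hearts and 13.8 ± 1.78 in Kat6a WT hearts. The order of these 5 chains was the same in both genotypes, with no overlap between neighbours. Lama1 stood at 1.78 ± 0.119 CPM per kilobase in Kat6a KO hearts and 2.43 ± 0.355 in Kat6a WT hearts, where it overlapped Lama2 at 2.54 ± 0.715, while in Kat6a KO hearts Lama2 at 2.97 ± 0.155 lay above it. Lama3, the alpha chain of skin-type laminin, was lowest, at 0.255 ± 0.0871 in Kat6a KO hearts and 0.274 ± 0.0461 in Kat6a WT hearts. None of Lamc1, Lamb1, Lama4 and Lama3 passed the test (edgeR, adjusted p = 0.530, 0.904, 0.851 and 0.924).

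**Figure D2:**
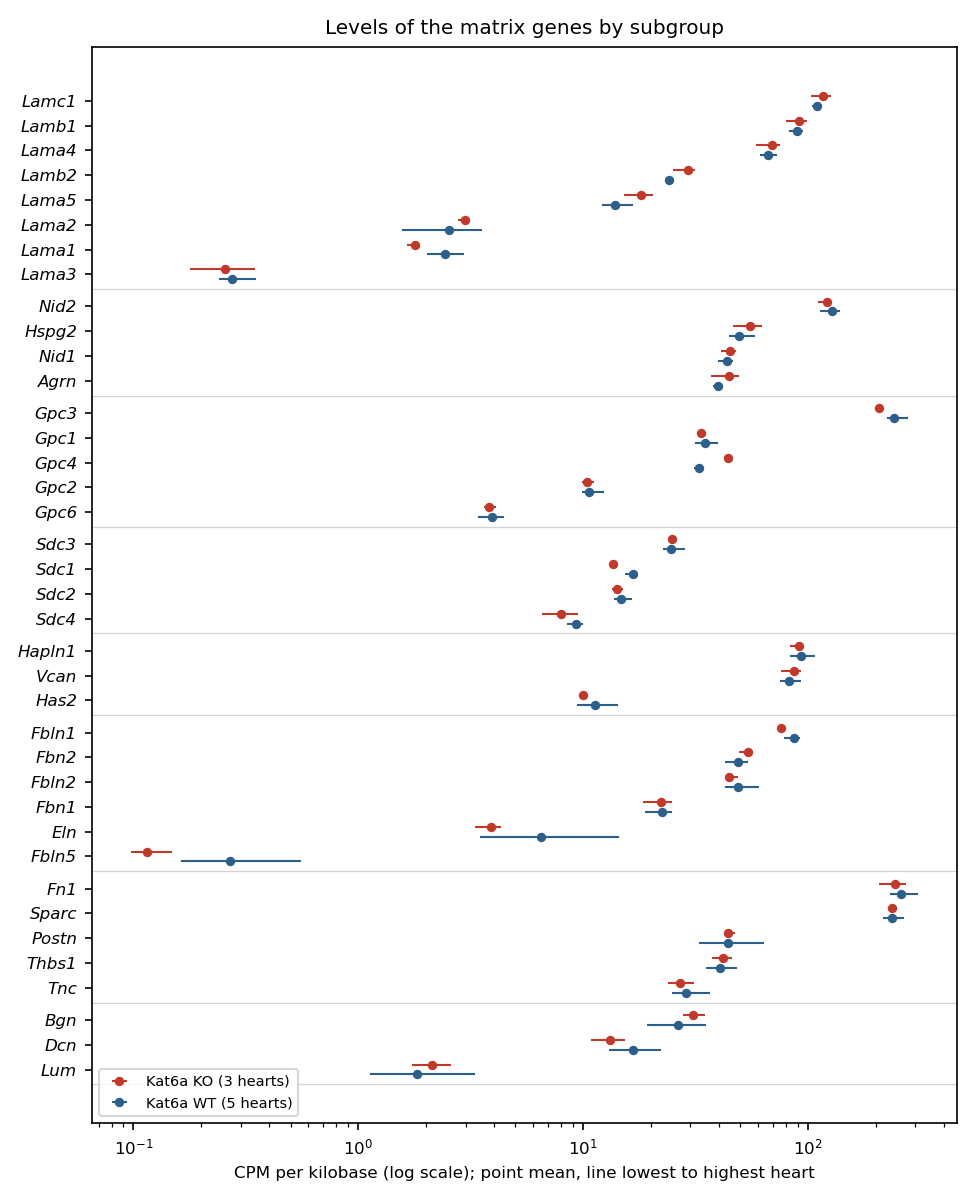
Level of each gene in CPM per kilobase on a log axis, in Kat6a KO hearts (upper point, n = 3) and Kat6a WT hearts (lower point, n = 5), with points for the mean and lines from the lowest to the highest heart. Within each subgroup the genes run from high to low, and the laminins reach from Lamc1 at 117 in Kat6a KO and 110.1 in Kat6a WT hearts down to Lama3 at 0.255 in Kat6a KO and 0.274 in Kat6a WT hearts.

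The 4 genes that join laminin to the rest of the basement membrane did not pass the test, and 0 had an unadjusted p under 0.05 (edgeR). Nid2, a nidogen, had the highest level per length of the 4, with 626, 609 and 541 CPM in Kat6a KO hearts and 602, 648, 679, 551 and 655 CPM in Kat6a WT hearts, and the groups overlapped. Nid2 averaged 121 ± 9.17 CPM per kilobase in Kat6a KO hearts and 128 ± 10.4 in Kat6a WT hearts, and Nid1, the other nidogen, 45.1 ± 3.62 in Kat6a KO hearts and 43.6 ± 2.65 in Kat6a WT hearts. Hspg2, which encodes perlecan, ranged over 659 to 883 CPM in Kat6a KO hearts and 634 to 825 CPM in Kat6a WT hearts (log2 fold change 0.16 ± 0.11, SE; edgeR, adjusted p = 0.613). Agrn, for agrin, a heparan sulfate proteoglycan that binds laminin and dystroglycan, had 351, 363 and 274 CPM in Kat6a KO hearts and 279, 303, 293, 293 and 302 CPM in Kat6a WT hearts. Kat6a KO replicates 1 and 2 were above all Kat6a WT hearts and replicate 3 was below them. Its log2 fold change was 0.16 ± 0.08 (SE; edgeR, adjusted p = 0.357), and 0.28 without that heart (adjusted p = 0.00493).

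Of the 5 glypicans, Gpc4 rose and Gpc3 fell in Kat6a KO hearts, and Gpc1, Gpc2 and Gpc6 did not pass. Glypicans are anchored to the membrane by a lipid and modulate Wnt, Hedgehog, BMP and FGF signals, and loss of human GPC3 causes an overgrowth syndrome with heart defects. Gpc4 (chrX:52051007-52164923) and Gpc3 (chrX:52272426-52613974) are neighbours on the minus strand of the X chromosome, 107502 bases apart. Their promoter windows, the 250 bases before the start in RefSeq for GRCm38.p6, are shown because these adjacent genes moved in opposite directions, and with them that of Sdc1, the called gene of the syndecans. Capitals mark the GC box GGGCGG and the CCAAT box CCAAT on either strand, no base lies in more than 1 match, and sequences read 5′ to 3′ on the strand of the gene.
Gpc4, chrX:52164924-52165173, minus strand: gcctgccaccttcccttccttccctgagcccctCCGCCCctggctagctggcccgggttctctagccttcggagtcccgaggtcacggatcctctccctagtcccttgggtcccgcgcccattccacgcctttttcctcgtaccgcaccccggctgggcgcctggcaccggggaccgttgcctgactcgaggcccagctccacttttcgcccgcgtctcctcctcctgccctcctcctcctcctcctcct
Gpc3, chrX:52613975-52614224, minus strand: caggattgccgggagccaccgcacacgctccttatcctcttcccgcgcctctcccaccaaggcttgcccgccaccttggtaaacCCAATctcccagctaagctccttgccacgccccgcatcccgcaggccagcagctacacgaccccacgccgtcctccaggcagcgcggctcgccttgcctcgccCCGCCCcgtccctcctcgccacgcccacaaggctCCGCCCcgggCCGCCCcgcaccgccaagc
Sdc1, chr12:8771146-8771395, plus strand: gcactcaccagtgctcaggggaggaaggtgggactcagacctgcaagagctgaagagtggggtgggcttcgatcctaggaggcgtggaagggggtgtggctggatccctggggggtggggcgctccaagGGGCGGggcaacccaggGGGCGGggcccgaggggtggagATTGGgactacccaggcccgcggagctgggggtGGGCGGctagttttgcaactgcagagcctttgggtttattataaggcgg

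The GC content was 68.4% with 18 CpG for Gpc4, 71.6% with 25 CpG for Gpc3 and 66.0% with 10 CpG for Sdc1, against medians of 52.4% and 6 CpG over 32851 RefSeq windows of the same length. The windows of Lamb2 (43.6%, 3 CpG) and Fbln1 (46.4% with 7 CpG and 62.4% with 14 CpG for 2 starts), not printed, were lower in GC content than these 3. The Gpc4 window had 1 GC box, and those of Gpc3 and Sdc1 had 3 GC boxes and 1 CCAAT box each. A GC box is found in 32.7% and a CCAAT box in 33.8% of all windows. The TATA box TATAAA, in 12.4% of all windows, and the GATA site AGATAA, in 9.99%, were searched on both strands and matched in none of the 3. The matches describe the letters only.

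Gpc4 was measured at 105, 105 and 98.7 CPM in Kat6a KO hearts, against 75.7, 73.5, 80.0, 72.5 and 77.7 CPM in Kat6a WT hearts. The groups were wide apart relative to their spread, with the lowest Kat6a KO heart at 98.7 CPM and the highest Kat6a WT heart at 80.0 CPM. The means were 103 ± 3.59 CPM in Kat6a KO hearts and 75.9 ± 3.07 CPM in Kat6a WT hearts, a difference of 35.4%, or 0.44 ± 0.05 on the log2 scale (SE; edgeR, adjusted p = 4.45e-05). Gpc4 kept its call under all 17 alternatives, with log2 fold changes of 0.42 to 0.46 and adjusted p up to 0.0057. These include the fit without the 2 hearts with Xist RNA.

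Gpc3 was measured at 481, 465 and 461 CPM in Kat6a KO hearts, against 525, 632, 535, 508 and 539.6 CPM in Kat6a WT hearts. All 3 Kat6a KO hearts lay below all Kat6a WT hearts, among which replicate 2 stood apart at the top. The mean of Kat6a KO hearts was 469 CPM, that of Kat6a WT hearts 548 ± 48.6 CPM (SD), and Gpc3 fell by 0.22 ± 0.06 on the log2 scale (SE; edgeR, adjusted p = 0.0480). The call sat close to the threshold and ended when any Kat6a KO heart, or Kat6a WT replicate 3 or 5, was left out (highest adjusted p = 0.159), and under the replicate block (0.0814), upper-quartile scaling (0.0535) and limma voom (0.0645). It held without the hearts with Xist RNA (adjusted p = 0.0365). The span of Gpc3, introns included, overlaps that of the long noncoding gene A630012P03Rik over 38132 bases, while the exonic length of Gpc3 is 2269 bases. Shared exon bases were not determined and the strand setting of the counting is not given. Whether reads of this partner are part of the Gpc3 count is therefore not known.

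The ratio of Gpc3 to Gpc4 within a heart, on levels per length, was 4.70, 4.53 and 4.79 in Kat6a KO hearts, against 7.10, 8.81, 6.85, 7.18 and 7.11 in Kat6a WT hearts. It averaged 4.67 ± 0.131 in Kat6a KO hearts and 7.41 ± 0.793 in Kat6a WT hearts, with no overlap. This separation follows from the values of both genes, each without overlap and in opposite directions. Gpc3 had by far the higher level in both genotypes, at 207 ± 4.63 CPM per kilobase in Kat6a KO hearts and 241 ± 21.4 in Kat6a WT hearts. Gpc4 stood second at 44.2 ± 1.54 in Kat6a KO hearts, above Gpc1 at 33.5 ± 0.262, whereas in Kat6a WT hearts Gpc4 at 32.6 ± 1.32 and Gpc1 at 34.9 ± 3.06 overlapped. Gpc2, a glypican known from the nervous system, averaged 10.4 ± 0.717 CPM per kilobase in Kat6a KO hearts and 10.6 ± 1.05 in Kat6a WT hearts. Gpc6 was lowest, at 3.82 ± 0.244 in Kat6a KO hearts and 3.93 ± 0.412 in Kat6a WT hearts. The span of Gpc2, introns included, shares 6370 bases with that of Stag3, and shared exon bases were not determined, so its count is uncertain.

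**Figure D3:**
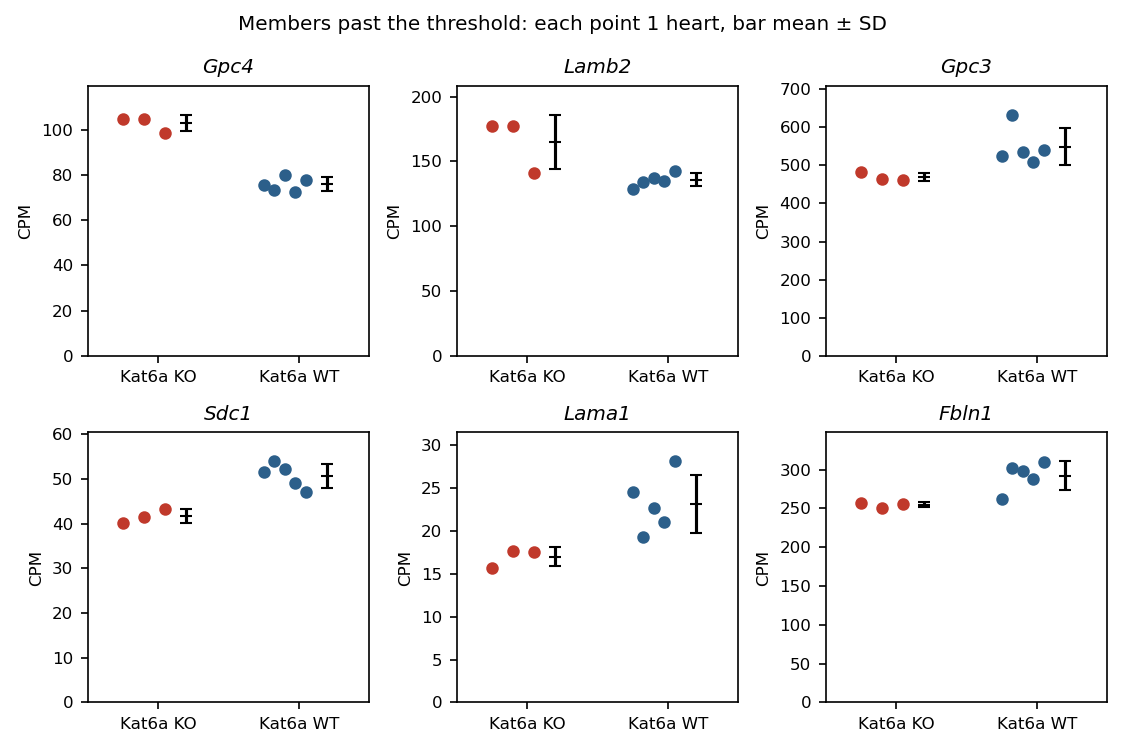
CPM of the 6 genes past the threshold in each Kat6a KO heart (left, n = 3) and each Kat6a WT heart (right, n = 5), with bars for the mean ± SD on axes from 0. The groups do not overlap for 5 of them, and for Lamb2 Kat6a KO replicate 3 at 141 CPM lies below the highest Kat6a WT heart at 143 CPM.

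Of the 4 syndecans, Sdc1 fell and 3 did not pass. Syndecans span the membrane and act as co-receptors of integrins and growth factor receptors. Sdc1 (chr12:8771396-8793716), the syndecan typical of epithelia and of condensing mesenchyme, had 40.2, 41.5 and 43.3 CPM in Kat6a KO hearts, against 51.6, 53.9, 52.1, 49.1 and 47.1 CPM in Kat6a WT hearts. No Kat6a KO heart reached the lowest Kat6a WT heart. Sdc1 averaged 41.7 ± 1.53 CPM in Kat6a KO hearts and 50.7 ± 2.64 CPM in Kat6a WT hearts, and fell by 0.28 ± 0.06 on the log2 scale (SE; edgeR, adjusted p = 0.0124). Of the 17 alternatives, its call was lost in 1, without Kat6a KO replicate 1 (adjusted p = 0.0936).

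Sdc3, the syndecan with the highest level per length here, was measured at 122, 122 and 126 CPM in Kat6a KO hearts and 113, 141, 119, 122 and 114 CPM in Kat6a WT hearts, with the Kat6a KO hearts inside the range of Kat6a WT. It averaged 24.8 ± 0.395 CPM per kilobase in Kat6a KO hearts and 24.5 ± 2.33 in Kat6a WT hearts. Sdc1 stood at 13.6 ± 0.501 in Kat6a KO hearts, where it overlapped Sdc2 at 14.2 ± 0.774, and at 16.6 ± 0.863 in Kat6a WT hearts, where it overlapped Sdc2 at 14.7 ± 1.09. Sdc4, a focal adhesion syndecan, had 16.2 to 23.3 CPM in Kat6a KO hearts and 20.9 to 24.6 CPM in Kat6a WT hearts (log2 fold change -0.21 ± 0.10, SE; edgeR, adjusted p = 0.346). Sdc2 and Sdc3 had adjusted p = 0.824 and 0.938 in the same edgeR test.

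The hyaluronan-rich cushion matrix did not pass the test in any of its 3 genes, and 0 had an unadjusted p under 0.05 (edgeR). Hapln1, the link protein that fastens versican to hyaluronan, had 475, 483 and 422 CPM in Kat6a KO hearts, against 541, 446, 482, 455 and 421 CPM in Kat6a WT hearts, and the groups overlapped. Vcan, which encodes versican, had 1334, 1363 and 1113 CPM in Kat6a KO hearts, against 1181, 1169.7, 1223, 1098 and 1364 CPM in Kat6a WT hearts, again with overlap. Per length, Hapln1 at 91.0 ± 6.53 CPM per kilobase in Kat6a KO hearts and 92.8 ± 9.04 in Kat6a WT hearts was close to Vcan at 86.4 ± 9.32 in Kat6a KO hearts and 82.2 ± 6.69 in Kat6a WT hearts. Has2, the hyaluronan synthase without which cushions do not form in mice, had 41.0, 43.6 and 43.0 CPM in Kat6a KO hearts, against 60.7, 48.9, 48.8, 39.9 and 41.5 CPM in Kat6a WT hearts. Kat6a WT replicates 1, 2 and 3 were above all Kat6a KO hearts, and replicates 4 and 5, the hearts with Xist RNA, were not, with replicate 4 below them and replicate 5 within their range.

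Has2 had a log2 fold change of -0.18 ± 0.12 (SE; edgeR, adjusted p = 0.592), and -0.31 with Xist RNA as a covariate (adjusted p = 0.0415). That was its lowest adjusted p over the 17 alternatives. Has2 was not called without the hearts with Xist RNA (-0.31, edgeR, adjusted p = 0.0609) or under the replicate block (-0.31, 0.131). Its count may hold reads of the antisense partner Has2os, whose span shares 4517 bases with that of Has2, introns included. Shared exon bases were not determined. Vcan and Hapln1 had adjusted p = 0.732 and 0.916 in edgeR. The ratio of Hapln1 to Vcan per length was 1.06 ± 0.0408 in Kat6a KO hearts and 1.14 ± 0.158 in Kat6a WT hearts, and that of Has2 to Vcan 0.117 ± 0.0146 in Kat6a KO hearts and 0.138 ± 0.0267 in Kat6a WT hearts, both overlapping.

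Of the 6 elastic fibre and microfibril genes, Fbln1 fell and 5 did not pass. Fbln1 (chr15:85205949-85286294) encodes fibulin-1, a calcium-binding glycoprotein of the cushion matrix that binds versican and fibronectin. It had 257, 251 and 256 CPM in Kat6a KO hearts, against 262, 302, 298, 288 and 309.6 CPM in Kat6a WT hearts. Kat6a WT replicate 1 was close to the Kat6a KO hearts and the other four were well above. The means were 255 ± 3.31 CPM in Kat6a KO hearts and 292 ± 18.6 CPM in Kat6a WT hearts, and Fbln1 fell by 0.20 ± 0.05 on the log2 scale (SE; edgeR, adjusted p = 0.0426). The call was lost on leaving out any heart other than Kat6a WT replicate 1 (adjusted p up to 0.143), without the hearts with Xist RNA (0.148), with Xist RNA as a covariate (0.120) and with the replicate block (0.269).

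Fbln5, an elastic fibre organiser, was near the limit of detection, with 0.569, 0.864 and 0.585 CPM in Kat6a KO hearts (13 to 17 counts) and 0.947, 3.26, 1.36, 1.17 and 1.09 CPM in Kat6a WT hearts (27 to 68 counts). The groups did not overlap, and Kat6a WT replicate 2 stood far above the others. The log2 fold change of -1.21 ± 0.42 did not pass (SE; edgeR, adjusted p = 0.167) and was -0.78 without that heart. Eln, for elastin, had 15.1, 12.6 and 16.3 CPM in Kat6a KO hearts and 13.2, 55.0, 19.3, 19.8 and 14.9 CPM in Kat6a WT hearts, with the same heart on top. Its log2 fold change was -0.72 ± 0.55 (SE; edgeR, adjusted p = 0.647), and -0.19 without Kat6a WT replicate 2.

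The fibrillins, which build the microfibrils on which elastin is laid, did not pass. Fbn2, the fibrillin of early development, averaged 53.9 ± 3.84 CPM per kilobase in Kat6a KO hearts and 48.9 ± 4.75 in Kat6a WT hearts (log2 fold change 0.14 ± 0.07, SE; edgeR, adjusted p = 0.418). Fbn1 averaged 22.2 ± 3.25 in Kat6a KO hearts and 22.4 ± 2.55 in Kat6a WT hearts (adjusted p = 0.983). The ratio of Fbn1 to Fbn2 was 0.410 ± 0.0331 in Kat6a KO hearts and 0.458 ± 0.0323 in Kat6a WT hearts, with overlap. Fbln2, a fibulin of cushion mesenchyme and vessel walls, ranged over 191 to 217 CPM in Kat6a KO hearts and 190.4 to 270.2 CPM in Kat6a WT hearts (log2 fold change -0.12 ± 0.11, SE; edgeR, adjusted p = 0.706).

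Fibronectin and the 4 matricellular genes did not pass, and 0 had an unadjusted p under 0.05 (edgeR). Fn1, for fibronectin, had the highest CPM of all 38 genes, with 2118, 2259.7 and 1708 CPM in Kat6a KO hearts and 1924, 1951, 2001, 2295 and 2549 CPM in Kat6a WT hearts. The groups overlapped, with Kat6a KO replicate 3 lowest and Kat6a WT replicate 5 highest. Per length Fn1 averaged 244 ± 34.4 CPM per kilobase in Kat6a KO hearts and 258 ± 32.6 in Kat6a WT hearts, beside Sparc, a collagen-binding glycoprotein, at 237 ± 7.43 in Kat6a KO hearts and 235 ± 20.2 in Kat6a WT hearts. Postn, the periostin of cushion mesenchyme and valves, ranged over 139 to 156 CPM in Kat6a KO hearts and 107 to 209.5 CPM in Kat6a WT hearts. Thbs1, a thrombospondin that activates latent TGF-beta, had 217 to 268 CPM in Kat6a KO hearts and 204 to 279.8 CPM in Kat6a WT hearts, and Tnc, for tenascin C, 169 to 220.2 CPM in Kat6a KO hearts and 176 to 260.4 CPM in Kat6a WT hearts. For all 4 of Sparc, Postn, Thbs1 and Tnc the Kat6a KO range overlapped that of Kat6a WT, and the smallest of the 5 adjusted p was 0.856 for Fn1 (edgeR).

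The small leucine-rich proteoglycans, which bind collagen fibrils and growth factors, did not pass either, with 0 at an unadjusted p under 0.05 (edgeR). Bgn, for biglycan, is X-linked (chrX:73483601-73495936) and had the highest level per length of the 3. Its values were 82.9, 66.7 and 70.9 CPM in Kat6a KO hearts, against 46.2, 84.2, 65.5, 60.9 and 58.9 CPM in Kat6a WT hearts, with Kat6a WT replicates 1 and 2 at opposite ends of the range. The log2 fold change of Bgn was 0.23 ± 0.19 (SE; edgeR, adjusted p = 0.683). Dcn, for decorin, had 22.5 to 32.2 CPM in Kat6a KO hearts and 27.1 to 46.3 CPM in Kat6a WT hearts (log2 fold change -0.33 ± 0.18, SE; edgeR, adjusted p = 0.489). Lum, for lumican, was low, with 3.61 to 5.35 CPM in Kat6a KO hearts and 2.33 to 6.85 CPM in Kat6a WT hearts (log2 fold change 0.23 ± 0.31, SE; edgeR, adjusted p = 0.817).

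Within-heart ratios between 8 pairs of related genes were computed as a description. Of these, 2 did not overlap between genotypes, Gpc3 to Gpc4 as given above and Lamb1 to Lamb2. The result for Gpc3 to Gpc4 was fixed by its genes, which each separated the genotypes, in opposite directions. Lamb1 to Lamb2 holds the called gene Lamb2, the genes were chosen with earlier results known, and no share over other pairs was computed. Lamb1 to Lamb2 was 3.15, 3.02 and 3.20 in Kat6a KO hearts, against 3.59, 3.88, 3.75, 3.60 and 3.74 in Kat6a WT hearts. All Kat6a KO hearts, replicate 3 included, were below all Kat6a WT hearts, with means of 3.12 ± 0.0907 in Kat6a KO and 3.71 ± 0.122 in Kat6a WT. Lama4 to Lama5 averaged 3.84 ± 0.206 in Kat6a KO hearts and 4.89 ± 0.708 in Kat6a WT hearts and overlapped through Kat6a WT replicate 5 at 3.86. Nid1 to Nid2 averaged 0.372 ± 0.00235 in Kat6a KO hearts and 0.341 ± 0.0382 in Kat6a WT hearts, and Fbln1 to Fbln2 1.71 ± 0.113 in Kat6a KO hearts and 1.80 ± 0.191 in Kat6a WT hearts, each with overlap.

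**Figure D4:**
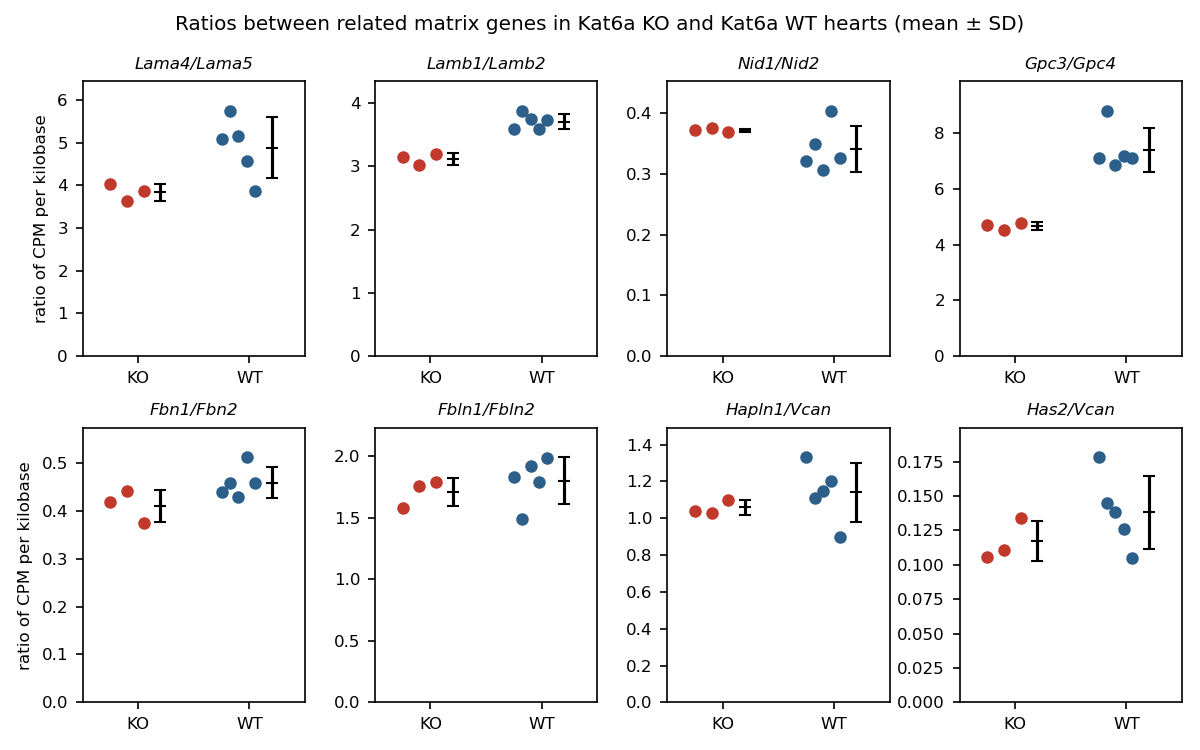
Ratio of levels per length for 8 pairs of genes in each Kat6a KO heart (left, n = 3) and Kat6a WT heart (right, n = 5), with bars for mean ± SD on axes from 0. Gpc3 to Gpc4 and Lamb1 to Lamb2 are lower in every Kat6a KO heart than in every Kat6a WT heart, and the other 6 pairs overlap.

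Within a genotype, single hearts stood low or high for many of these genes, a pattern described after the values were seen. Kat6a KO replicate 3 was the lowest of the Kat6a KO hearts for 20 of the 38 genes, against 34.7% of all genes tested, and for 10 of the 12 laminin, nidogen, perlecan and agrin genes. Kat6a WT replicate 2 was the highest of the Kat6a WT hearts for 20 of the 38 genes, against 23.6% of all genes tested, and for 6 of the 9 elastic fibre and small leucine-rich proteoglycan genes. Kat6a WT replicate 5 was the highest for 13 of the 38, against 18.7% of all genes tested, and replicate 4 for 0, against 20.4%. Among Kat6a WT hearts the median coefficient of variation was 9.84% over the 38 genes, against 8.16% over all genes tested. Of the 38 genes, 35 had a Kat6a WT mean of at least 10 CPM, and their median was 9.72%, against 6.05% over 10062 tested genes at that level. It passed 11.8%, the 90th percentile of the 10062 genes, for 12 of the 35.

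**Figure D5:**
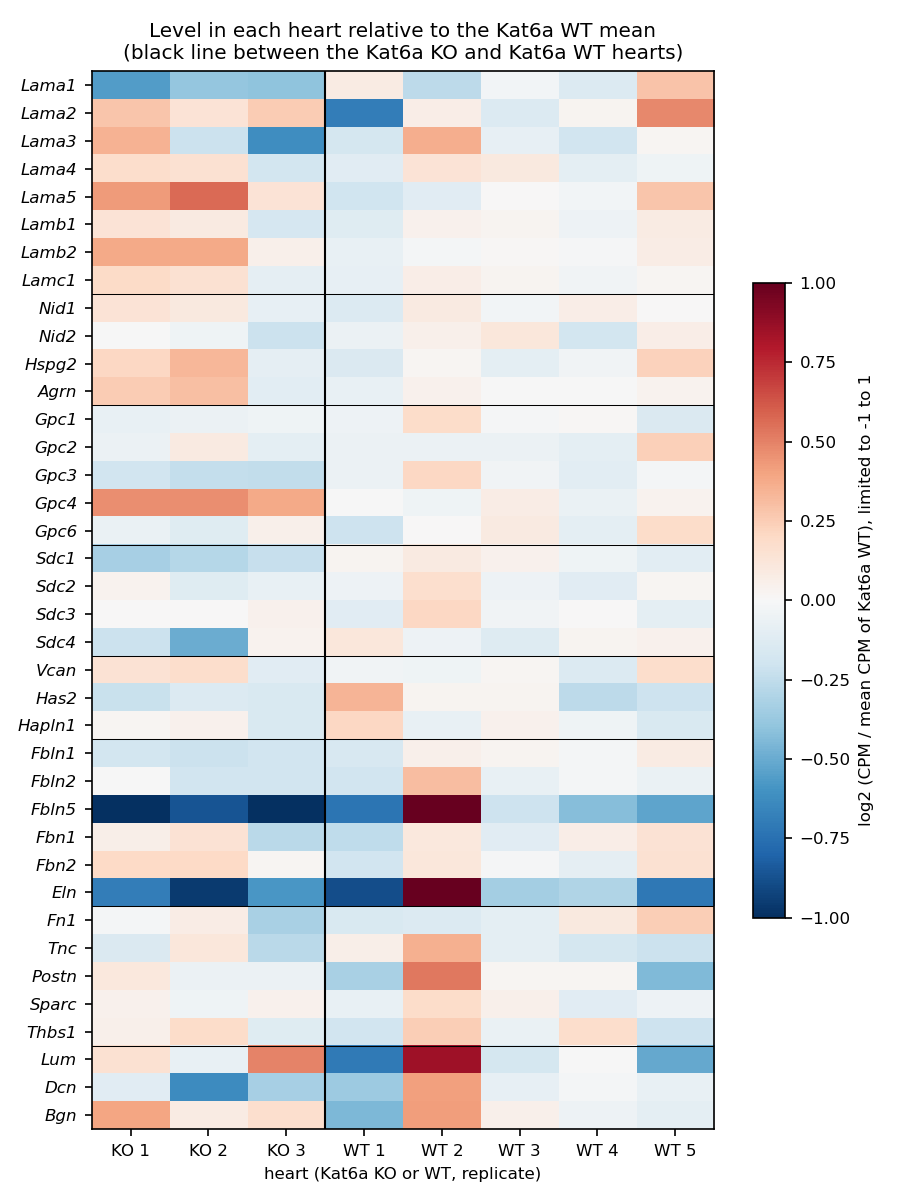
Log2 ratio of CPM in each heart (columns, the 3 Kat6a KO hearts on the left and the 5 Kat6a WT hearts on the right) to the Kat6a WT mean, for the 38 genes in rows by subgroup, with colours limited to -1 to 1. Gpc4 is red and Gpc3, Sdc1 and Lama1 are blue in all 3 Kat6a KO hearts, and Kat6a WT replicate 2 is the reddest column for Fbln5, Eln and Lum.

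Some epicardial, cushion mesenchyme, macrophage and endothelial markers passed the test between genotypes, and no marker of the other lists did. All lists are given as values, and their part in these results was not tested. Over all genes tested, 1.23% were called lower, 1.44% higher and 2.67% in either direction. The marker lists too were chosen with earlier results known, so differences from these shares are no evidence of enrichment. Of 9 epicardial markers, 6 were lower in Kat6a KO hearts, and the summed level of the 9 was 311 to 360.1 CPM in Kat6a KO hearts and 442 to 507 CPM in Kat6a WT hearts. Of 9 cushion mesenchyme markers, Msx1 and Twist1 were lower and Msx2 higher, with sums of 828 to 869 CPM in Kat6a KO hearts and 872 to 974 CPM in Kat6a WT hearts, the top value being replicate 2. Most of each sum was Tbx20, which averaged 545 CPM in Kat6a KO and 576 CPM in Kat6a WT hearts. Tbx20 did not pass (edgeR, adjusted p = 0.488) and its groups overlapped. Of 8 macrophage markers, 4 were higher, with sums of 20.3 to 26.7 CPM in Kat6a KO hearts and 4.87 to 14.4 CPM in Kat6a WT hearts. Of 8 endothelial and endocardial markers, 2 were higher and 1 lower, with sums of 1161 to 1230.3 CPM in Kat6a KO hearts and 1133 to 1290 CPM in Kat6a WT hearts. No cardiomyocyte marker of 8 passed in edgeR (4 at an unadjusted p under 0.05, against 14.2% of all genes tested), with sums of 33983 to 37184 CPM in Kat6a KO hearts and 31743 to 34104 CPM in Kat6a WT hearts, the highest sums of the lists. None of 7 erythroid markers (5095 to 8705 CPM in Kat6a KO, 3647 to 15112 CPM in Kat6a WT), 12 immediate early and heat shock genes (268 to 475 CPM in Kat6a KO, 242 to 299 CPM in Kat6a WT), 4 tested neural crest and pharyngeal markers of 7 (6.73 to 9.81 CPM in Kat6a KO, 5.54 to 12.3 CPM in Kat6a WT) and 2 tested liver and foregut markers of 5 (1.73 to 13.8 CPM in Kat6a KO, 0.338 to 1.41 CPM in Kat6a WT) passed in edgeR, and 0, 1, 0 and 1 of these lists' genes had an unadjusted p under 0.05. Single hearts set the top of some of these ranges. The 475 CPM of the immediate early and heat shock genes was that of Kat6a KO replicate 1. The other Kat6a KO hearts had 268 and 275 CPM. Without replicate 1, 0 of the 38 matrix genes were called lower in edgeR (5 at an unadjusted p under 0.05). Without Kat6a KO replicate 2 or 3, only 1 was called lower, Sdc1 (5 and 6 at an unadjusted p under 0.05, edgeR). The 13.8 CPM of the liver and foregut markers was that of Kat6a KO replicate 3, against 1.91 and 1.73 CPM in the other Kat6a KO hearts. Afp alone made up 12.1 CPM of it. Ttr, the other tested marker, had 0.36 CPM in that heart, inside its Kat6a WT range of 0.271 to 0.808 CPM. Kat6a KO replicate 3 is also the heart that was lowest for 20 of the 38 matrix genes. The neural crest genes Foxd3 and Tfap2b were under 0.1 CPM in every heart.

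Of 115 further genes for matrix receptors, glycosaminoglycan synthesis, matrix proteases and other matrix proteins, 106 were tested, of which 4 rose and 1 fell in Kat6a KO hearts. That is 4.72% of the 106, against 2.67% of all genes tested, and their median log2 fold change was -0.02. These lists too were chosen with earlier results known, so the shares are no evidence of enrichment. Itga6, an integrin subunit that binds laminin, was the only gene of 11 laminin chains and receptors to pass. It had 653, 659 and 571 CPM in Kat6a KO hearts, against 518, 482, 565, 505 and 569 CPM in Kat6a WT hearts, a narrow gap with no overlap, and rose by 0.25 ± 0.06 on the log2 scale (SE; edgeR, adjusted p = 0.0284). Extl1, of the exostosin family that builds heparan sulfate, was the only gene of 21 tested in heparan sulfate synthesis and editing to pass. Its levels were 5.79, 5.34 and 6.66 CPM in Kat6a KO hearts, against 8.19, 9.29, 8.93, 7.66 and 9.37 CPM in Kat6a WT hearts, without overlap, and it fell by 0.55 ± 0.13 on the log2 scale (SE; edgeR, adjusted p = 0.0269). The call of Itga6 ended when replicate 1 or 2 of Kat6a KO, or 1 or 4 of Kat6a WT, was left out (highest adjusted p = 0.191), and that of Extl1 when replicate 1 or 2 of Kat6a KO, or 3 or 5 of Kat6a WT, was left out (0.133). Without the hearts with Xist RNA the adjusted p was 0.0505 for Itga6 and 0.0642 for Extl1, under the replicate block it was 0.150 for Itga6 and 0.125 for Extl1, and with Xist RNA as a covariate it was 0.0619 for Itga6.

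Of 16 tested genes for hyaluronan and chondroitin sulfate, Chst11, a sulfotransferase that modifies chondroitin chains such as those of versican, rose by 0.32 ± 0.07 on the log2 scale (SE; edgeR, adjusted p = 0.0105). Its values were 62.8, 50.9 and 59.7 CPM in Kat6a KO hearts, against 45.7, 49.9, 44.8, 43.5 and 47.8 CPM in Kat6a WT hearts, and the lowest Kat6a KO heart was close above the highest Kat6a WT heart. The call of Chst11 ended when replicate 1 or 3 of Kat6a KO was left out (highest adjusted p = 0.130), when the hearts with Xist RNA were left out (0.0505) and under the replicate block (0.132). Of 17 genes for elastic fibre assembly, Ltbp1, a latent TGF-beta binding protein of microfibrils, rose by 0.35 ± 0.06 (adjusted p = 0.00114), with 423, 429.5 and 386 CPM in Kat6a KO hearts and 298, 357, 329.7, 305 and 331 CPM in Kat6a WT hearts. Of 25 tested genes for other matrix glycoproteins and proteoglycans, Sparcl1, a relative of Sparc, rose by 0.46 ± 0.08 (adjusted p = 0.00178), with 41.6, 42.1 and 39.9 CPM in Kat6a KO hearts and 26.6, 35.0, 29.9, 28.0 and 30.5 CPM in Kat6a WT hearts. The groups did not overlap for Ltbp1 or Sparcl1, and both kept their call under all 17 alternatives. No gene of 16 matrix proteases and their inhibitors passed in edgeR, 3 had an unadjusted p under 0.05, and the smallest p was that of Tll1, a tolloid protease, at 3.28, 3.10 and 3.60 CPM in Kat6a KO hearts and 3.52, 4.36, 5.86, 5.79 and 6.34 CPM in Kat6a WT hearts (log2 fold change -0.64 ± 0.20, SE; adjusted p = 0.103).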

How the data were processed

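Total RNA of each heart was made into a TruSeq stranded library, per the labels' protocols. The submitters' processing notes name bcl2fastq, featureCounts and the mm10 build. For the aligner, the annotation, versions and the strand setting no source used here gives an entry, so reads of overlapping or antisense genes may be mixed. The authors deposited unnormalized counts by Entrez ID, and the deposited table and the 8 single-heart files hold the same counts. Symbols, coordinates (GRCm38.p6, the assembly of mm10) and promoter windows came from RefSeq tables, which named 25275 of 27179 IDs and gave windows for 23 of the 38 genes, 5 of the 6 called genes included. Lengths per gene are those of the deposited table.

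Genes were filtered with filterByExpr by group (15086 kept), scaled by trimmed mean of M values and tested with edgeR's quasi-likelihood test (robust) over all 8 hearts, Kat6a KO over Kat6a WT, with Benjamini-Hochberg adjustment over all tested genes and a threshold of 0.05. The SE was taken as the size of the log2 fold change divided by the root of the F statistic. The common dispersion was 0.00828. Versions were edgeR 4.0.16, DESeq2 1.42.0 and limma 3.58.1 in R 4.3.3, with tables made by pandas 2.3.3 under Python 3.11.15, and the test was checked on simulated data.

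The genes and lists were chosen with earlier results of these data known. Values in every heart are given for genes past the threshold, for the highest per length in each subgroup and for X-linked genes, and for others chosen after their values were seen. Of each further list, up to 3 called genes of smallest p are named, or the gene of smallest p where none passed. Alternatives were DESeq2, limma voom with quality weights, 2 other scalings, 2 other filters, the replicate number as a block, Xist RNA (over 10 CPM) as a covariate or its hearts left out, and leaving out each heart. For every gene, the block takes the contrast from the hearts without Xist RNA only, so it is not separate from leaving the others out.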

Additional observations from a re-analysis of the deposited data

Results flagged for a closer look

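Among the 5 Kat6a WT hearts, the highest or lowest value of 4 of the 38 genes lay farther from its nearest neighbour, relative to the whole range, than Dixon's critical value of 0.710. Chance gives such a gap in about 1 of 20 groups. In 3 of the 4 the heart was Kat6a WT replicate 2, at 632 CPM for Gpc3, 3.26 CPM for Fbln5 and 55.0 CPM for Eln. The fourth was replicate 5 for Gpc2, at 31.3 CPM. Without Kat6a WT replicate 2, Gpc3 was still called lower, with a log2 fold change of -0.17.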

How the results depend on the processing

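Of the 38 matrix genes 2 were called higher and 4 lower in Kat6a KO hearts, and of the 106 further genes 4 higher and 1 lower. With the replicate number as a block, 1 matrix gene was higher (Gpc4) and 1 lower (Sdc1), and 2 further genes were higher and 0 lower. At an unadjusted p under 0.05, 10 further genes were lower with the block in edgeR. Without the block there were 12 in edgeR and 14 in DESeq2. At an adjusted p under 0.05, DESeq2 without the block called 1 further gene lower. Same-numbered hearts had correlations of their deviations from the group means of 0.066, -0.119 and -0.054. No correlations of differently numbered hearts were computed for comparison, so these cannot decide whether the numbers pair the hearts. Without the 2 hearts with Xist RNA, 1 matrix gene was higher and 2 were lower (Gpc3 and Sdc1), and 0 further genes were lower (13 at an unadjusted p under 0.05, edgeR). Leaving out single hearts gave 1 to 3 matrix genes higher and 0 to 4 lower, the 0 without Kat6a KO replicate 1 (5 at an unadjusted p under 0.05, edgeR). It gave 2 to 7 further genes higher, the 7 without Kat6a WT replicate 2 and the 2 without Kat6a KO replicate 1, and 0 to 3 lower, the 3 without Kat6a WT replicate 1 and the 0 without Kat6a KO replicate 1 or 2 or Kat6a WT replicate 3 or 5. The cause was not tested. DESeq2, limma voom, the other scalings, the other filters and Xist RNA as a covariate left each of these counts within 1.5 times of the main value. The genes behind a count could still change. With Xist RNA as a covariate, Lama1 and Fbln1 were no longer called lower and Has2 was. Among the further genes called higher, Itga6 dropped out and Adamts19 and Spock2 came in. The log2 fold changes of the 19 matrix genes given with a direction and of Itga6, Extl1, Chst11, Ltbp1 and Sparcl1 did not reverse under the 17 alternatives. For Tll1 and the cell type markers, log2 fold changes under the alternatives were not compared. Tll1 did pass as lower when Kat6a WT replicate 1 was left out. Of the 19 uncalled genes with a log2 fold change under 0.1 in size, 13 changed sign under at least 1 alternative, so no direction is given for them. Depth limits the genes of lowest count, with 13 to 17 counts in Kat6a KO hearts for Fbln5, 41 to 108 for Lama3 and 71 to 126 for Lum.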
